A study of Mus musculus with 9 samples.

Results

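The transcripts described here are those of 9 genes of myelin and of the oligodendrocyte, the cell that makes it: Mbp, Mobp, Mog, Mag, Cnp, Ugt8a, Enpp2, Mal and Opalin. They were chosen by name, as known oligodendrocyte and myelin genes, out of 55401 annotated genes, with earlier results of these data known. They were followed through 9 RNA-seq libraries of neuronal nuclei. Nuclei carrying NeuN, the neuronal RNA-binding protein encoded by Rbfox3, had been sorted from mouse cortex, so the sort selects against the cells in which these genes are normally read most. The groups, of 3 libraries each, were P301S tau transgenic mice injected with the Cdk5i peptide, P301S tau transgenic mice injected with a scrambled peptide, and wild-type mice that got no treatment. Peptides were given into the abdomen at 20 mg per kg of body weight every other day, and all animals were 7 to 9 months old. P301S is a mutation of the tau protein that causes inherited frontotemporal dementia, and Cdk5 is a kinase that phosphorylates tau. The labels used here name neither the P301S line nor the promoter of its transgene. Since the wild-type mice were not injected, genotype and injection cannot be told apart in any comparison with them.

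Oligodendrocytes wrap axons in compacted layers of their own membrane, which insulate the axon and speed conduction. Building that membrane takes a small set of structural proteins (Mbp, Mobp, Mag, Mog and Mal among them) and enzymes that make its unusual lipids, such as galactosylceramide. Many of these genes are switched on together when a precursor matures, under the transcription factors Sox10 and Olig2. Nuclear RNA holds many unspliced transcripts, and the deposited tables count whole genes, introns included.

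To show what the genes start from, promoter windows from RefSeq on GRCm38.p6 are given for 3 members, each running 5′ to 3′ on the gene's own strand from 250 bases before the annotated start to 50 after it. The motif ACAAAG, a core that SOX factors bind, was chosen after these sequences were seen and was searched on both strands, where the reverse strand reads CTTTGT. Matches are in capitals. Mobp is shown because it had the lowest p-value of the members in the comparison of scrambled peptide with wild type, Ugt8a because it came next, and Opalin as the other member with more than 1 match in a window. The Mobp window is chr9:120149492-120149791 on the plus strand, the Ugt8a window chr3:125938603-125938902 on the minus strand, and the Opalin window chr19:41077064-41077363 on the minus strand.
Mobp: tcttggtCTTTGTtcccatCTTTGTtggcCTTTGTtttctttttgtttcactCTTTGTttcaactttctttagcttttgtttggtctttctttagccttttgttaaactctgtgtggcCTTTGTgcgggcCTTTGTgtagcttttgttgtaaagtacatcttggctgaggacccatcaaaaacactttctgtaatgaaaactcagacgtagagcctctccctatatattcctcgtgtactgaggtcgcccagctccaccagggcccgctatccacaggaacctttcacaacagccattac
Ugt8a: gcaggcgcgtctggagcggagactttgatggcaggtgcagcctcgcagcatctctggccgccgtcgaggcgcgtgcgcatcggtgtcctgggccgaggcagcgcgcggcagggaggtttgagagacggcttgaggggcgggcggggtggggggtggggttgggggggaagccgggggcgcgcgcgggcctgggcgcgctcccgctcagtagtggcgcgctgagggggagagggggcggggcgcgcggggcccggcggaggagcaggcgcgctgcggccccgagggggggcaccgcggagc
Opalin: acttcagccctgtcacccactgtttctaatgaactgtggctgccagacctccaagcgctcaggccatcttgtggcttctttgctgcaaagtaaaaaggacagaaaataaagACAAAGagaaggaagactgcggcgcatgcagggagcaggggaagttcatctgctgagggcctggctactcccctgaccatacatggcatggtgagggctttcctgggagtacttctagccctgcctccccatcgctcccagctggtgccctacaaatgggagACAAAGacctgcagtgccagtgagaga

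The Mobp window held 6 matches, all on the reverse strand, and of 32851 RefSeq promoter windows of the same length it was the only 1, or 0.00304%, with that many. Any match at all was present in 18.7% of those windows. Opalin's window held 2 matches and that of Cnp 1. Mag has 3 windows in the table, of which 2 overlap and hold the same single match. None was found in the Ugt8a, Mal and Mog windows. The Ugt8a window is instead rich in G and C (78.3%), with 40 CG dinucleotides against a median of 7 over all windows. A match is a description of these letters and not evidence that a factor binds there. Since the motif was chosen after the sequences were seen, its rarity over all windows is not a test. Windows of 7 members were searched; Enpp2 and Mbp are named only.

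Sequencing depth was even. The libraries held 21584712 to 26715938 counted read pairs, of which ribosomal RNA took 0.771 to 3.06% and mitochondrial transcripts 0.0793 to 0.137%. Over all genes, libraries of the same group had Spearman correlations of 0.92 to 0.923, and on the first principal component, with 21.4% of the variance, replicate 1 of the Cdk5i group lay at one end and replicate 1 of wild type at the other. No label says whether libraries came from separate animals, so p-values measure only the spread between these libraries, which may be technical.

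All 9 members were detected in every library, at levels that differ by far. Values are CPM, the counts of a gene per 1000000 counts of the library, on library sizes scaled by the trimmed mean of M-values (TMM). To compare genes, the mean CPM over all 9 libraries was divided by the length of the gene span in kilobases. On that scale Enpp2 stood at 0.767 and Mbp at 0.671, both above the 0.548 of the median tested gene. Cnp followed at 0.107, Ugt8a at 0.102 and Mobp at 0.0844. Below these lay Mag at 0.0562, Mal at 0.0536, Mog at 0.0201 and Opalin at 0.0135, which is the 3.98th percentile of tested genes. Rbfox3, the gene of the sorted protein, stood at 3.06 on the same scale. Medians of tested marker genes were 1.10 for excitatory neurons, 1.07 for inhibitory neurons, 0.134 for other mature oligodendrocyte genes, 0.0949 for astrocytes and 0.0142 for microglia. So 7 of the 9 members lay at or below the median of the other mature oligodendrocyte genes, and Mbp and Enpp2 lay above it.

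**Figure D1:**
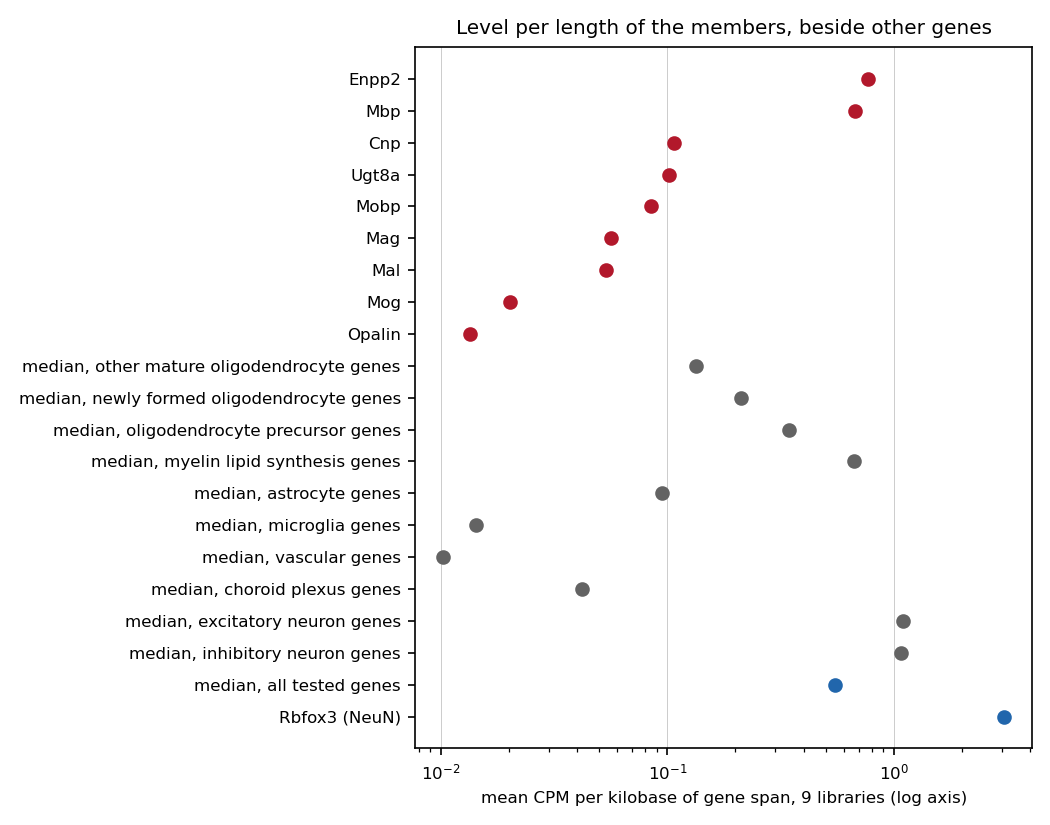
Mean CPM per kilobase of gene span over the 9 libraries, on a log axis, for the 9 members (red), the medians of the marker lists (grey), and the median tested gene and Rbfox3 (blue). Enpp2 at 0.767 and Mbp at 0.671 lie apart from the other members, which run from 0.0135 to 0.107.

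For this reason the sum of the members is in the main a sum of Mbp and Enpp2. Mbp made up 46.0% of it in the Cdk5i group, 39.7% in the scrambled group and 40.5% in wild type, and Enpp2 45.8%, 51.4% and 51.9% in the same groups. The summed members reached 178.5 ± 25.4 CPM in Cdk5i libraries, 194.1 ± 13.5 CPM in scrambled libraries and 155.7 ± 4.11 CPM in wild-type libraries (SD, n = 3 each). Scrambled libraries ran from 179.9 to 206.8 CPM and wild-type libraries from 152.0 to 160.1 CPM, without overlap. Cdk5i libraries, from 149.2 to 193.9 CPM, overlapped both. With Mbp and Enpp2 left out, the other 7 members summed to 14.6 ± 2.54 CPM in Cdk5i, 17.2 ± 2.89 CPM in scrambled and 11.8 ± 0.934 CPM in wild-type libraries, so the order of the group means stayed the same. In these bulk samples, the number of oligodendrocyte nuclei in the sort, the RNA per nucleus and reads of these genes from neurons cannot be told apart.

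Among the structural proteins of myelin, Mbp encodes myelin basic protein, which holds the cytoplasmic faces of the membrane together (ENSMUSG00000041607, GRCm38, plus strand). Its gene model spans 110.5 kb and contains the longer Golli transcripts, which neurons are known to express too, so its reads cannot be assigned to myelin basic protein alone. Mbp had 79.8, 107.1 and 59.5 CPM in Cdk5i replicates 1, 2 and 3, against 79.5, 60.3 and 91.6 CPM in scrambled replicates and 63.3, 56.4 and 69.6 CPM in wild-type replicates. The 3 groups overlap, and the peptide-treated ones vary most, with a coefficient of variation of 29.1% in Cdk5i, 20.4% in scrambled and 10.5% in wild-type libraries. The log2 fold change was 0.29 ± 0.24 (SE) for scrambled peptide against wild type, with an edgeR adjusted p of 0.736.

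Mobp, the gene of myelin-associated oligodendrocyte basic protein, another small protein of compact myelin, was the member with the largest difference between scrambled and wild-type libraries (ENSMUSG00000032517, chr9:120149707-120181484, plus strand). It had 3.35, 2.36 and 2.71 CPM in Cdk5i libraries, against 4.59, 2.85 and 2.78 CPM in scrambled libraries and 1.47, 2.34 and 1.68 CPM in wild-type libraries. Every P301S library was above every wild-type library, although Cdk5i replicate 2, at 2.362 CPM, and wild-type replicate 2, at 2.341 CPM, nearly touched. Behind these values stand 62 to 75 counts in Cdk5i, 65 to 119 counts in scrambled and 31 to 50 counts in wild-type libraries. Mobp was 1.86-fold higher with scrambled peptide than in wild type, a log2 fold change of 0.90 ± 0.25 (SE, 95% interval 0.35 to 1.44). The unadjusted edgeR p was 0.0034 and the p adjusted over all 16046 genes tested 0.307, so the call was not made. Without scrambled replicate 1, the highest library, the log2 fold change was 0.62 and the edgeR adjusted p 0.510. The last 2447 bases of the gene are shared, on the same strand, with Gm38642, and read pairs over both are in neither count. Gm38642 itself had 14 to 51 counts per library.

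Mag, Mal, Mog and Opalin were close to the limit of what can be counted. Mag encodes myelin-associated glycoprotein, which faces the axon (ENSMUSG00000036634, chr7:30899176-30914873, minus strand). It had 1.25, 0.495 and 0.535 CPM in Cdk5i, 1.16, 1.27 and 0.714 CPM in scrambled and 0.901, 0.655 and 0.954 CPM in wild-type libraries, from 13 to 30 counts. All 3 groups overlap, and Cdk5i replicate 1 lies far above the other 2 libraries of its group. Mal, a proteolipid of membrane rafts that takes part in trafficking to myelin (ENSMUSG00000027375, chr2:127633226-127656695, minus strand), had 2.28, 1.14 and 1.03 CPM in Cdk5i, 1.47, 1.14 and 1.39 CPM in scrambled and 1.09, 0.796 and 0.999 CPM in wild-type libraries. Scrambled and wild-type libraries did not overlap for Mal, but at 0.47 ± 0.33 (SE) on the log2 scale the edgeR adjusted p was 0.664.

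Mog and Opalin did not pass the filter on low counts and so have no test. Mog, the myelin oligodendrocyte glycoprotein on the outermost surface of the sheath (ENSMUSG00000076439, chr17:37010743-37023398, minus strand), had 7, 7 and 6 counts in Cdk5i, 10, 5 and 7 counts in scrambled and 3, 5 and 5 counts in wild-type libraries. Opalin, a membrane glycoprotein of oligodendrocytes (ENSMUSG00000050121, chr19:41061710-41077113, minus strand), had 10, 2 and 4 counts in Cdk5i, 2, 4 and 5 counts in scrambled and 6, 6 and 4 counts in wild-type libraries. At 2 to 10 counts, differences of the sizes seen in the other members were not detectable. Opalin was also the only member with its lowest group mean in the scrambled and its highest in the wild-type group.

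**Figure D2:**
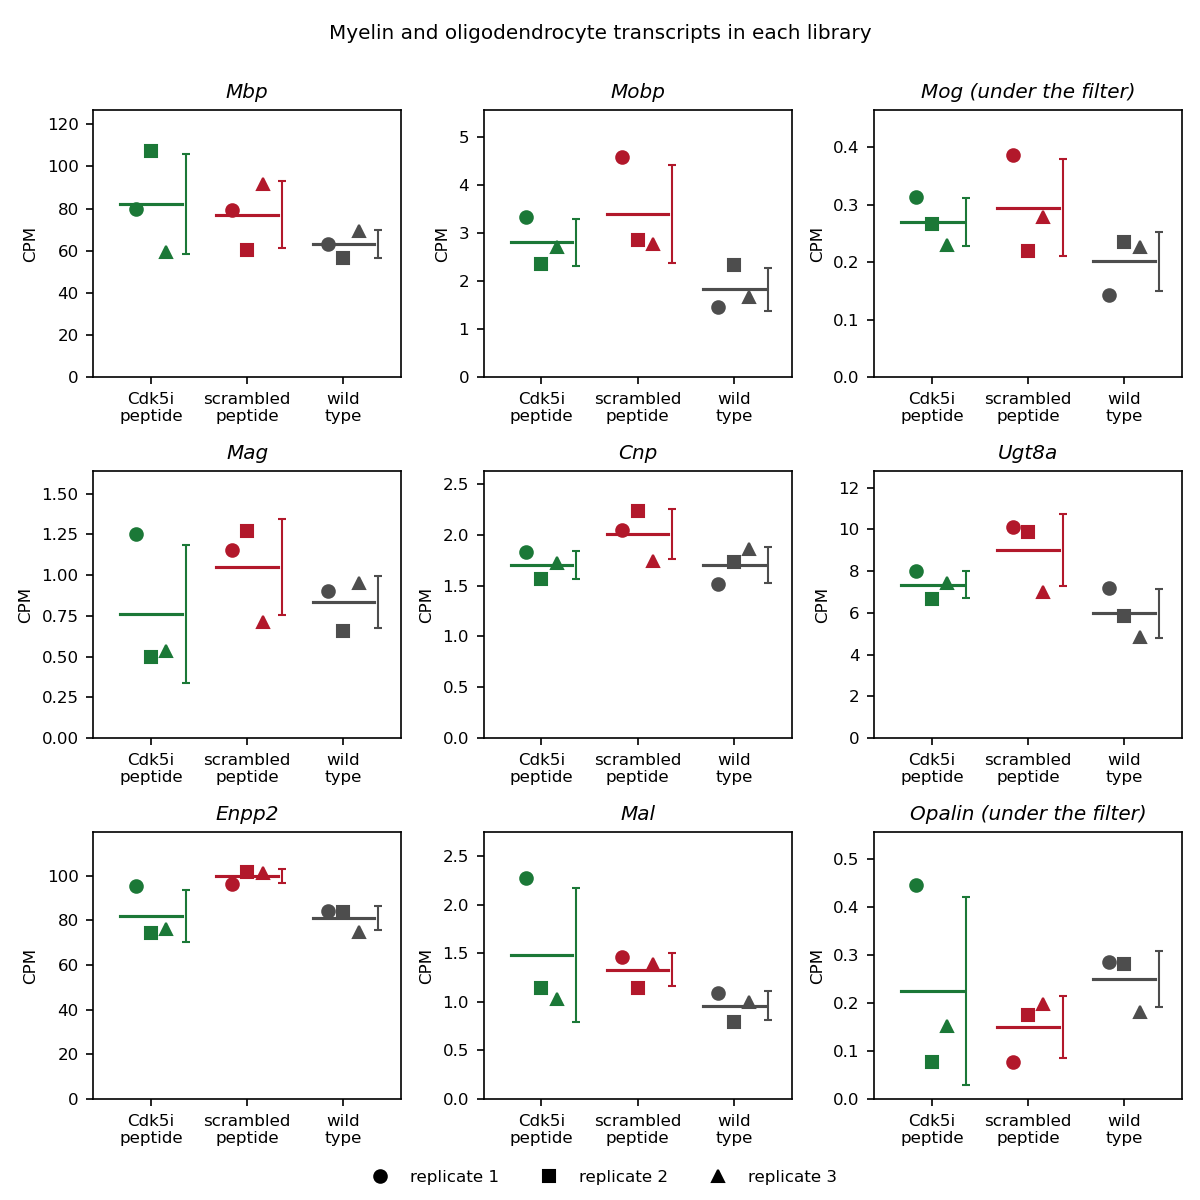
CPM of each member in each library, with each panel's axis starting at 0. Points are libraries, horizontal lines group means and bars 1 SD (n = 3). Mobp is above all wild-type libraries in all 6 P301S libraries, and Enpp2 is above all other groups' libraries in the 3 scrambled libraries.

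Of the enzymes, Cnp encodes cyclic nucleotide phosphodiesterase, an abundant protein of uncompacted myelin (ENSMUSG00000006782, chr11:100574904-100591729, plus strand). It was the steadiest of the low members, at 1.83, 1.56 and 1.72 CPM in Cdk5i, 2.04, 2.24 and 1.75 CPM in scrambled and 1.52, 1.73 and 1.86 CPM in wild-type libraries. The groups overlap, and the log2 fold change of scrambled peptide against wild type was 0.23, with an edgeR adjusted p of 0.737. That of Cdk5i against scrambled peptide was -0.24, with 0.966.

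Ugt8a encodes the galactosyltransferase that makes galactosylceramide, the main glycolipid of myelin (ENSMUSG00000032854, chr3:125865271-125938619, minus strand). Its level was 7.99, 6.67 and 7.41 CPM in Cdk5i, 10.1, 9.88 and 7.02 CPM in scrambled and 7.21, 5.85 and 4.86 CPM in wild-type libraries. Scrambled replicate 3 lies just below the highest wild-type library, so these groups overlap by 1 library each. The log2 fold change of scrambled peptide against wild type was 0.59 ± 0.17 (SE, 95% interval 0.22 to 0.96), or 1.51-fold, with an unadjusted edgeR p of 0.00404 and an adjusted p of 0.307.

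Enpp2 encodes autotaxin, a secreted enzyme that makes lysophosphatidic acid and is abundant in oligodendrocytes and in the choroid plexus (ENSMUSG00000022425, chr15:54838901-54952892, minus strand). It had 95.1, 74.2 and 75.9 CPM in Cdk5i libraries, against 96.2, 101.8 and 101.1 CPM in scrambled libraries and 84.2, 83.7 and 74.6 CPM in wild-type libraries. The 3 scrambled libraries, with a coefficient of variation of 3.07%, were above all others. Of all tested genes, 8.26% had scrambled above all wild-type libraries and 5.38% had Cdk5i below all scrambled libraries. The share with both was not computed. Enpp2 was 1.23-fold higher with scrambled peptide than in wild type (log2 fold change 0.30 ± 0.09, SE), with an unadjusted edgeR p of 0.00476 and an adjusted p of 0.311. With the Cdk5i peptide it was lower than with scrambled peptide, at a log2 fold change of -0.29 ± 0.09 (SE, 95% interval -0.48 to -0.10), with an unadjusted edgeR p of 0.00649 and an adjusted p of 0.768. Without Cdk5i replicate 1, which at 95.1 CPM lay next to the scrambled libraries, that log2 fold change was -0.41 and its adjusted p 0.108. Of the choroid plexus markers, the transthyretin gene Ttr had only 1 to 16 counts per library, and the 16 listed genes summed to 28.5 ± 7.94 CPM in Cdk5i, 33.4 ± 2.13 CPM in scrambled and 30.0 ± 5.29 CPM in wild-type libraries (SD, n = 3 each). The part of choroid plexus RNA in the Enpp2 values was not tested.

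Read together, the comparison of scrambled peptide with wild type asked how neuronal nuclei of P301S mice given the scrambled peptide differ from normal ones. Of the 7 members tested, 0 passed an adjusted p of 0.05 with edgeR, in a comparison in which 13 genes, or 0.081%, passed. Limma also passed 0 of the 7, and DESeq2 0 of the 3 members (Mbp, Ugt8a and Enpp2) to which it gave an adjusted p. An unadjusted edgeR p under 0.05 was reached by 3 members, Mobp, Ugt8a and Enpp2, all higher with scrambled peptide, against 4.86% of all tested genes that were higher at that level. Without a filter on low counts, where 32394 genes were fitted, these 3 passed after adjustment (edgeR adjusted p 0.0109, 0.00915 and 0.00972 in the order named). In that fit the prior degrees of freedom, which set how far a gene's spread is drawn to the common trend, were infinite, against 7.15. Many more of all genes passed there too, as given in the section on processing. Groups without overlap, higher with scrambled peptide, were found for 3 members, Mobp, Enpp2 and Mal, against 8.26% of all genes. All 7 log2 fold changes were positive, running from 0.23 to 0.90 with a median of 0.32, against 51.7% positive and a median of 0.01 over all genes.

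The comparison of the Cdk5i with the scrambled peptide asked what the Cdk5i peptide does in P301S mice, where both groups were injected. It had 0 members past the threshold with edgeR, DESeq2 or limma, as against 0.0125% of all genes with edgeR. Log2 fold changes were negative for 5 of the 7 members (Enpp2, Ugt8a, Mobp, Cnp and Mag; 52.8% of all genes were negative) and positive for Mbp, at 0.09, and Mal, at 0.14. The negative value of Mobp, -0.29, rested on scrambled replicate 1, without which it was -0.0020. Mbp turned negative without Cdk5i replicate 2 (-0.15) or scrambled replicate 2 (-0.05), and Mal without Cdk5i replicate 1 (-0.29). Enpp2 alone reached an unadjusted edgeR p under 0.05, which 2.46% of all genes did in the lower direction, and alone had groups without overlap, as 5.38% of genes did. Enpp2 passed only without the low-count filter, at an edgeR adjusted p of 0.0431, in the fit with infinite prior degrees of freedom, where many more of all genes passed too. The 95% intervals show what was left undecided: they ran from -0.80 to 0.23 for Mobp, from -0.65 to 0.07 for Ugt8a and from -1.30 to 0.34 for Mag. Without Cdk5i replicate 1, the log2 fold change of Mag moved to -1.01 (unadjusted edgeR p 0.0187, adjusted p 0.968), against -0.48 with all libraries. Both comparisons use the scrambled libraries, which had the highest group mean for 6 of the 9 members, so their opposite signs are not independent of each other. The share of all genes with their highest mean in that group was not computed.

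Against wild type, the Cdk5i group also had 0 members past the threshold with edgeR, DESeq2 or limma, against 0.0748% of all genes with edgeR; DESeq2 again gave an adjusted p to 3 members only. Mobp again had the lowest p, with a log2 fold change of 0.61 ± 0.26 (SE), an unadjusted edgeR p of 0.0325, which 5.73% of genes reached in the higher direction, and an adjusted p of 0.408. It was also the only member whose groups did not overlap, against 8.03% of genes that were higher in this way. Of the 7 log2 fold changes 5 were positive, as were 48.8% over all genes. That of Mal was 0.61, of Mbp 0.38 and of Ugt8a 0.30, with intervals that include 0. Without Cdk5i replicate 1 that of Mal was 0.18, without Cdk5i replicate 2 that of Mbp was 0.14, and without wild-type replicate 3 that of Ugt8a was 0.17. Cnp, at -0.0031, and Enpp2, at 0.02 with a 95% interval of -0.18 to 0.21, lay closest to 0. 

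Both P301S groups were also set against wild type, a contrast chosen after the values were seen. Mobp stood at 0.75 ± 0.23 (SE, edgeR adjusted p 0.232) on the log2 scale and Ugt8a at 0.45 ± 0.15 (SE, edgeR adjusted p 0.279). Past the edgeR threshold were 0 members, against 0.081% of genes. These 2 had an unadjusted edgeR p under 0.05, which 6.1% of genes reached in the higher direction. Only Mobp had all 6 P301S libraries above the 3 wild-type libraries, as 3.22% of genes did. All 7 members had positive values, against 50.3% of genes.

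**Figure D3:**
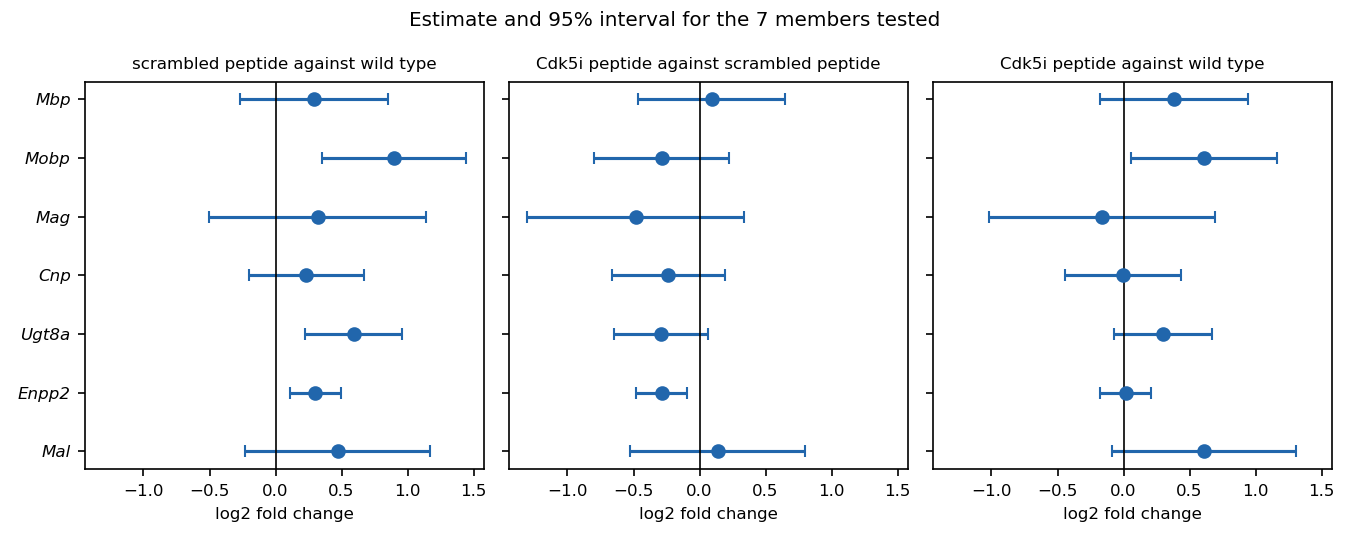
Log2 fold change of the 7 members tested in each comparison, with edgeR's estimate (points) and its 95% interval (bars). For scrambled peptide against wild type all 7 points are above 0, and the intervals of Mobp, Ugt8a and Enpp2 leave out 0; none passed after adjustment over all genes.

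Within a group the members varied together only in part, and most in the Cdk5i group. In the Cdk5i group, replicate 1 was the highest library for 8 of the 9 members, all but Mbp, which was highest in replicate 2. How many of all tested genes were highest in replicate 1 was not computed, so this may not be particular to the members. Replicate 2 was in turn the lowest for 6 members. Cdk5i replicate 1 was also the library at the end of the first principal component over all genes and had the lowest mitochondrial share, 0.0793%. The part of that library's quality in its high values was not tested. In the scrambled and wild-type groups no replicate was highest for more than 4 of the 9 members. Across all 9 libraries, the highest value was in a scrambled library for 6 members, in a Cdk5i library for 3 and in a wild-type library for 0, while the lowest was in a wild-type library for 6 and in a Cdk5i library for 3. The matching shares of all tested genes were not computed. Since the members share the same libraries, these counts are not independent observations.

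**Figure D4:**
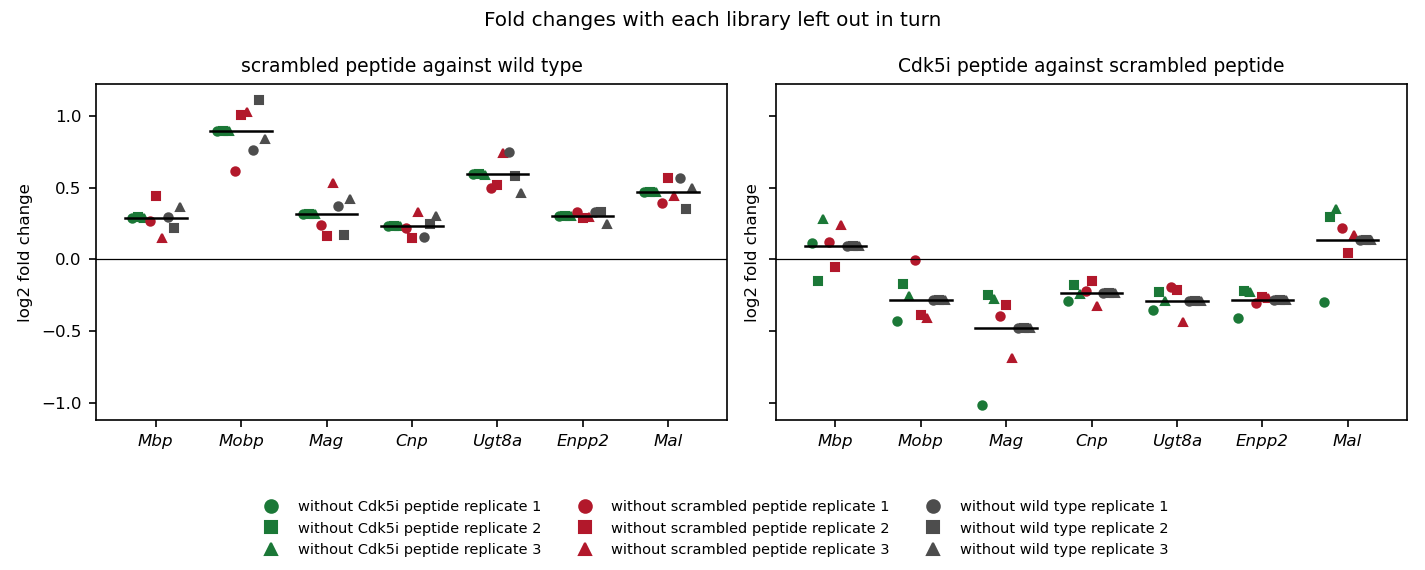
Log2 fold change of the 7 members tested after removal of any 1 of the 9 libraries (points, coloured by group and shaped by replicate) and with all libraries (lines). For scrambled peptide against wild type every point is above 0, whereas for Cdk5i against scrambled peptide Mal moves to -0.29 and Mag to -1.01 without Cdk5i replicate 1, and Mbp to -0.15 without Cdk5i replicate 2.

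Other genes of the oligodendrocyte lineage were set beside the members. Their lists, like the members, were chosen with earlier results of these data known. Among 46 other mature oligodendrocyte genes, 36 were tested and 0 passed in any comparison with edgeR. With scrambled peptide against wild type, 27 of the 36 had positive log2 fold changes, with a median of 0.21, against 51.7% of all genes. Of the 36, 5 had an unadjusted edgeR p under 0.05, all higher, against 4.86% of all genes. The 46 genes summed to 206.4 ± 6.09 CPM in Cdk5i, 227.7 ± 2.42 CPM in scrambled and 207.4 ± 2.79 CPM in wild-type libraries (SD, n = 3 each). The scrambled libraries, from 226.0 to 230.5 CPM, lay above all 6 others, whose highest was 210.7 CPM. How often sums of other genes have this order was not computed. Over the 9 libraries Tspan2 had a mean of 10.6 CPM, Elovl1 3.94, Ermn 0.513 and Cldn11 0.301, each a small part of that sum. Which cells the rest of the sum was read in was not tested. For Cdk5i against scrambled peptide, 28 of the 36 were negative, with a median of -0.14, against 52.8% of all genes. Of the 36, 5 had an unadjusted edgeR p under 0.05, all lower, against 2.46% of all genes.

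Single genes of that list had values of both signs for scrambled peptide against wild type. The largest positive value was that of Cldn11, the tight-junction protein of myelin, with 11, 12 and 11 counts in scrambled against 6, 3 and 3 counts in wild-type libraries, a difference of 1.28 on the log2 scale (edgeR adjusted p 0.379). Elovl1, which lengthens very long fatty acids, came next with 0.87 (edgeR adjusted p 0.475). The most negative were Ermn, the gene of ermin, an oligodendrocyte cytoskeletal protein, at -0.73 (edgeR adjusted p 0.587) and the tetraspanin Tspan2 at -0.18 (edgeR adjusted p 0.706). Sox10, the lineage's transcription factor, had 3 to 12 counts per library and Olig2 0 to 8, both under the filter.

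Genes of earlier stages of the lineage had both signs. Of 11 tested genes of newly formed oligodendrocytes, 5 had positive log2 fold changes for scrambled peptide against wild type and the median was -0.00076. In that list Bcas1 stood at 0.63 and Itpr2, a calcium channel of the endoplasmic reticulum, at 0.31, while the calcium-sensing receptor gene Casr stood at -1.13 and Enpp6 at -0.32, with edgeR adjusted p from 0.419 to 0.843. Of 16 tested genes of oligodendrocyte precursors, 7 were positive, with a median of -0.07. Their sum was 3003 ± 54.7 CPM in Cdk5i, 2857 ± 114 CPM in scrambled and 3151 ± 127 CPM in wild-type libraries (SD, n = 3 each). The scrambled libraries, from 2754 to 2979 CPM, lay below the wild-type libraries, from 3049 to 3292 CPM. For the sums, this is the opposite order to the members. In this list 2 genes, Megf11 at -0.41 and Pcdh15 at -0.36 on the log2 scale, had an unadjusted edgeR p under 0.05, both lower with scrambled peptide, against 5.2% of all genes, and 0 were higher. Their edgeR adjusted p were 0.214 and 0.23, and both were named after their values were seen. Pdgfra, the growth factor receptor that defines precursors, had 7 to 22 counts per library and a mean of 0.686 CPM, a very small part of that sum. For scrambled peptide against wild type it stood at 0.48, Cspg4 at 0.81 and Matn4 at 0.97 on the log2 scale, the sign of the members. Their edgeR adjusted p ran from 0.586 to 0.706, and 9 of the 16 tested precursor genes were negative. Many genes of the precursor list are also read in neurons. The difference between the lists was not tested.

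Markers of other cell types were measured in the same libraries. For scrambled peptide against wild type the median log2 fold change was 0.02 over 17 tested astrocyte genes, 0.15 over 8 microglial genes, -0.06 over 7 vascular genes, -0.03 over 16 excitatory and 0.02 over 16 inhibitory neuron genes. Astrocyte genes summed to 813.9 ± 113 CPM in Cdk5i, 747.6 ± 106 CPM in scrambled and 815.5 ± 6.82 CPM in wild-type libraries, and microglial genes to 88.8 ± 41.9, 79.6 ± 6.84 and 99.7 ± 55.5 CPM in the same groups (SD, n = 3 each). In both lists the scrambled group had the lowest mean, and the groups overlapped. Excitatory neuron genes summed to 2402 ± 289, 2316 ± 61.8 and 2305 ± 44.4 CPM and vascular genes to 6.60 ± 2.02, 6.54 ± 0.384 and 7.21 ± 1.96 CPM, in the order Cdk5i, scrambled and wild type, with overlap.

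Summed inhibitory neuron genes were lower in every scrambled library than in any other library, the opposite order to the summed members against wild type. Their sum was 3054 ± 133 CPM in Cdk5i, 2700 ± 159 CPM in scrambled and 3142 ± 266 CPM in wild-type libraries (SD, n = 3 each). Scrambled libraries ran from 2527 to 2838 CPM, below the Cdk5i libraries, from 2924 to 3190 CPM, and the wild-type libraries, from 2855 to 3380 CPM. Adarb2, at -0.29, Erbb4, at -0.28, and Nxph1, at -0.19 on the log2 scale, had an unadjusted edgeR p under 0.05 for scrambled peptide against wild type, all lower, against 5.2% of all genes, with edgeR adjusted p from 0.285 to 0.444. These 3 were named after their values were seen. Of the 16 tested genes of this list, 9 had positive log2 fold changes in this comparison and 7 negative, so the sum does not describe the whole list. Gad1 stood at 0.03, Gad2 at 0.08 and Slc32a1 at 0.10. The part of a different mix of nuclei in the values of the members was not tested.

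Of 21 genes of myelin lipid synthesis and the sterol pathway, 14 were positive between scrambled peptide and wild type, with a median of 0.03, against 51.7% of all genes. Between Cdk5i and scrambled peptide 18 of them were negative, with a median of -0.09, against 52.8% of all genes. Cers2, Fa2h, Gal3st1, Elovl1 and Elovl7 are also in the list of other mature oligodendrocyte genes, so these 2 lists are not separate. In all these lists 0 genes passed the edgeR threshold.

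**Figure D5:**
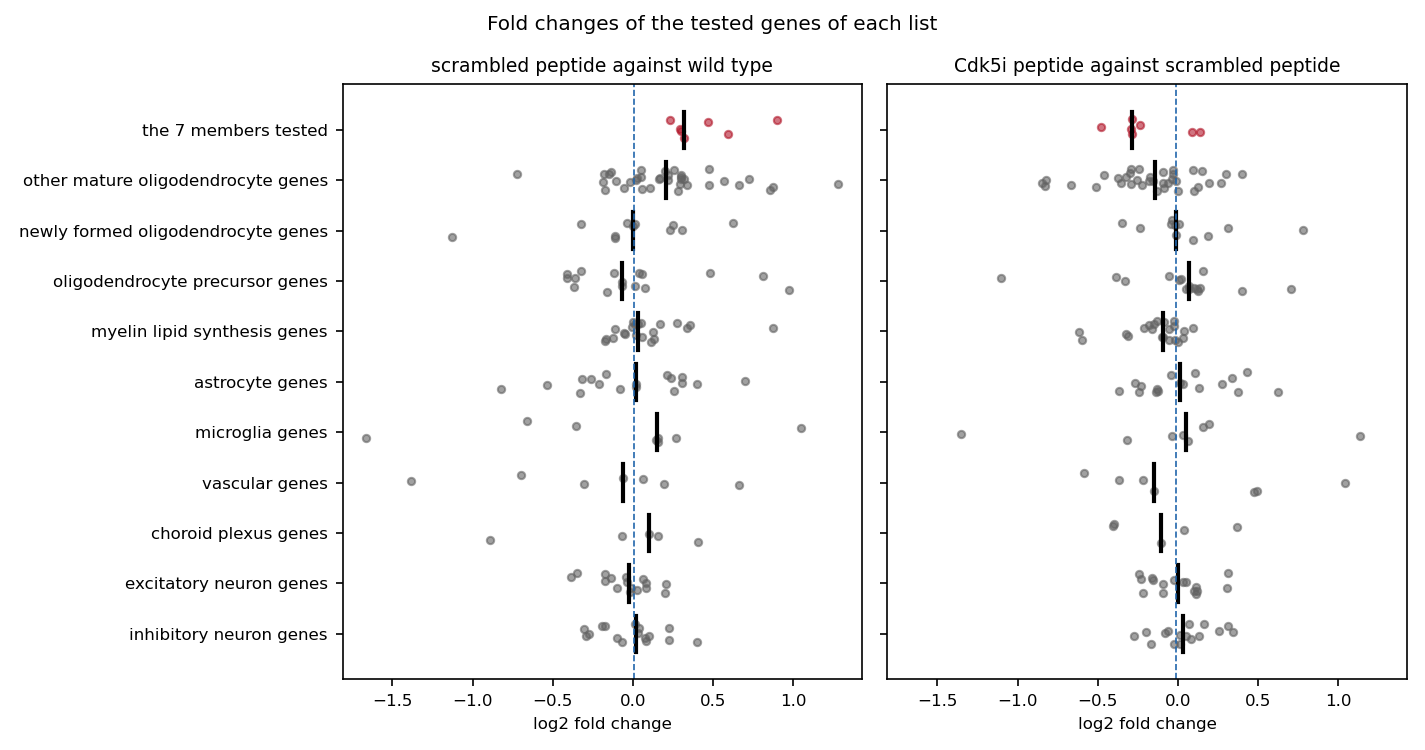
Log2 fold changes of the tested genes of each list with scrambled peptide relative to wild type (left) and with Cdk5i relative to scrambled peptide (right). Points are genes, black bars list medians and the dashed line the median of all tested genes. The members (medians 0.32 and -0.29) and the other mature oligodendrocyte genes (0.21 and -0.14) lie off the dashed line on opposite sides in the panels, which share the scrambled libraries.

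The genes whose level most resembled the summed members over the 9 libraries were ranked among 11913 genes with a mean count of at least 50, on log2(CPM + 0.1). Pearson's r was 0.948 for Anxa11, an annexin, 0.921 for Wipi2, an autophagy gene, 0.917 for Sfxn5, a mitochondrial carrier, 0.913 for the transcription factor gene Foxo3 and 0.906 for Pip5k1c, a phosphoinositide kinase. Anxa11 had a mean of 17.5 CPM over the 9 libraries. Genes of the oligodendrocyte lists could rank far lower: Gsn had an r of 0.71 (rank 334) and Itpr2 of 0.337 (rank 2649). These r describe 9 libraries that also share their groups and depth, and the sum they are set against is mostly Mbp and Enpp2.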

How the data were processed

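Sorted NeuN+ cortical nuclei gave 9 RNA-seq libraries, made with an FFPE RNA kit and the SMARTer stranded pico total RNA kit and sequenced as pairs, per the labels' protocols. The authors deposited raw counts of read pairs per whole gene (exons and introns, reverse strand, pairs over several genes dropped), for which the file headers name featureCounts 2.0.0 and the Ensembl release 102 annotation of GRCm38. STAR 2.7.9a and DESeq2 1.36.0 also appear in the submitters' processing notes. Depth was 21584712 to 26715938 counts per library, so low genes carry large counting error.

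From the deposited counts, CPM on TMM-scaled library sizes of the tested genes were computed here. Tests used edgeR 4.0.16 (R 4.3.3): filterByExpr with a minimum count of 10, robust quasi-likelihood fit, 1 model of 3 group means over all 9 libraries (6 residual degrees of freedom), and Benjamini-Hochberg adjustment over 16046 genes at 0.05. Intervals are 95% intervals of the fit. Sums and lists were described without a test. Alternatives were DESeq2 1.42.0, limma 3.58.1 with sample weights, other scalings, filters and dispersions, a fit of only the groups compared, a replicate block and leaving out each library. The procedure was tested on simulated data. Further genes were named by rule: in the mature and newly formed oligodendrocyte lists, the 2 largest positive and the 2 most negative fold changes, plus Sox10, Olig2, Pdgfra, Ttr and Kl, and the 5 genes most like the summed members; 1 further gene is not reported here. Kl, a choroid plexus gene, had a log2 fold change of -0.07 for scrambled peptide against wild type. Members and lists were chosen with earlier results of these data known.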

Additional observations from a re-analysis of the deposited data

How the results depend on the processing

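Members past the threshold stayed at 0 in every setting but 1. Without a low-count filter 32394 genes were fitted and edgeR's prior degrees of freedom became infinite, against 7.15. There 3 members passed for scrambled peptide against wild type (Mobp, adjusted p 0.0109; Ugt8a, 0.00915; Enpp2, 0.00972), 1 for Cdk5i against scrambled peptide (Enpp2, 0.0431) and 2 for both P301S groups against wild type (Mobp, 0.0168; Ugt8a, 0.0353). Over all genes, counts past the threshold were 318, 159 and 408 without a filter and 70, 27 and 116 with DESeq2, in the order scrambled against wild type, Cdk5i against scrambled, Cdk5i against wild type, where the fit reported gave 13, 2 and 12. For scrambled and for Cdk5i against wild type they were 5 and 1 with a mean count of at least 50, 6 and 3 with non-robust dispersion, and 2 for Cdk5i against wild type with only the groups compared. With a library left out they ran from 2 to 17, 2 to 18 and 2 to 14. DESeq2 gave no adjusted p for Mobp, Mag, Cnp and Mal in the comparisons with wild type.

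Some log2 fold changes turned sign. For Cdk5i against wild type, Cnp stood at 0.0012 with RLE size factors, 0.0098 without a filter, 0.0025 with only the groups compared and 0.0036 with DESeq2. Mag in both P301S groups against wild type was -0.016 with limma. With a library left out, Cnp (-0.079 to 0.066), Enpp2 (-0.11 to 0.081) and Mag (-0.69 to 0.071) crossed 0 for Cdk5i against wild type, Mbp (-0.15 to 0.28) and Mal (-0.29 to 0.35) for Cdk5i against scrambled peptide, and Mag (-0.19 to 0.20) for both P301S groups. For scrambled peptide against wild type, all 7 members kept a positive sign in every setting. The causes were not tested.

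No label read here says that replicate numbers pair samples. In their deviations from group means, same-numbered libraries correlated at -0.308 to 0.171 and differently numbered ones at -0.151 to 0.276. These values cannot exclude a pairing by another scheme. The replicate block gave 2, 2 and 2 genes and 0 members past the threshold. Depth limits Mog, Opalin, Mag and Mal most, at 2 to 51 counts per library.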
